A study of Homo sapiens with 4 samples.

Results

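Antisense RNA genes were chosen by their symbol, which ends in -AS with 0 or 1 digit after it, and by a sum of 200 or more counts over the 4 RNA-Seq libraries. In the count table of 27011 genes, 1032 symbols had this ending, 367 of them reached 200 counts and 665 did not, of which 229 had 0 counts in every library. The data come from HEK293T cells, a human embryonic kidney line that carries adenoviral genes and the SV40 large T antigen. Total RNA was sequenced from 2 libraries of WT cells and 2 of Helz-null cells, described by the study as biological replicates. The Helz-null cells are HEK293T cells in which HELZ, an RNA helicase that binds the CCR4-NOT deadenylase complex, was disrupted with CRISPR-Cas9, and neither cell type received any treatment. All Helz-null libraries come from that edited line, and whether it was grown from a single cell was not given in the sources used here, so that the loss of HELZ and other properties of the line cannot be told apart. In cultures read as bulk RNA, fewer cells of a type and less RNA per cell cannot be told apart either.

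An antisense RNA is transcribed from the strand opposite to another gene, and its gene is usually named after that gene, here called its partner. The transcript may start near the partner's promoter and run away from it, overlap it head to head or tail to tail, or lie inside it, and most such transcripts are long non-coding RNAs that are made at low level. Known members act on the partner's transcription, on its splicing, or on the stability of its mRNA by pairing with it, and many are rapidly degraded in the nucleus by the RNA exosome. The comparison of both cell types shows which of these transcripts, in cells without the helicase, differ in level and whether the partner differs with them.

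Library totals were 65005666 and 42342295 counts in WT cells and 41745401 and 70464140 in Helz-null cells, and a floor of 3 counts equals 0.0421 to 0.0718 counts per 1e6 counts (CPM). HELZ itself had 97.8 and 102.0 CPM in WT and 36.2 and 37.1 CPM in Helz-null cells, a log2 fold change of -1.44 (SE 0.042, edgeR adjusted p = 1.01e-25). The 7 markers of HEK293T cells summed to 1467 to 1469 CPM of the unscaled library total in WT and 1572 to 1592 in Helz-null cells. Single markers went different ways: NEFM was at 233 and 223 in WT and 434 and 430 in Helz-null cells, KRT8 at 26.5 and 29.0 against 13.8 and 14.7, and VIM at 1037 and 1037 against 969 and 954. The 10 markers of blood, endothelium, fibroblasts and liver summed to 14.1 to 14.5 in WT and 14.5 to 16.1 in Helz-null cells. Of these, 9 stayed below 1 in every library, and HBB and DCN were at 0. The exception was the fibroblast marker COL1A1, at 13.8 and 14.3 in WT and 15.8 and 14.2 in Helz-null cells, nearly all of the sum.

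Of the 367 antisense genes, 303 were matched to the GENCODE annotation of GRCh37 by symbol, 55 by an older symbol and 9 not at all. GENCODE listed 349 as long non-coding RNA, 5 as protein coding, 3 as pseudogenes and 1 as a gene to be experimentally tested. The selection value was the summed count, which had a median of 850 for antisense genes, 6931 for all 13887 genes with 200 or more counts and 9689.5 for the partners. RALY-AS1 with 201 and PCOLCE-AS1 with 204 counts were just inside the limit, and PTENP1-AS with 195 and MFI2-AS1 with 193 just outside. In the WT libraries 8 antisense genes summed to fewer than 100 counts, as did 5 in the Helz-null libraries. Together the antisense genes took 0.489% and 0.494% of the counts in WT and 0.479% and 0.478% in Helz-null libraries.

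Antisense genes were mostly less abundant than their partners. In WT cells the median level per length was 2.33 FPKM (CPM per kilobase of the deposited gene width) for antisense genes and 9.49 FPKM for partners. Of the 367 named partners, 355 were in the count table and 14 of these were below 200 counts, which left 341 pairs with 334 different partners. The antisense gene was below its partner's FPKM in 292 pairs and above it in 49, and the median ratio was 25.4%.

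The pairs differed in how the genes lie to each other. GENCODE gave positions for both genes of 346 pairs, on opposite strands in every case. The starts overlapped head to head in 132 pairs, the ends overlapped tail to tail in 81, the antisense gene lay inside its partner in 56 and around it in 22, and the genes were apart and divergent in 53 and apart and convergent in 2. In 128 pairs the starts were within 1000 bases of each other, and 4 pairs were separated by more than 2000 bases. Of the 358 antisense genes with a position, 280 shared at least 1 exonic base with another tested gene on either strand. The sources used here do not state whether reads were counted by strand, and reads from shared bases of an antisense gene and its partner are for that reason uncertain.

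Promoter windows show how differently antisense genes begin, and 3 are given here from the pairs whose ratio differed between the cell types. Each runs from 250 bases before to 50 after the RefSeq start in GRCh38.p14, 5′ to 3′ on the strand of the antisense gene, with the GC box letters GGGCGG, or CCGCCC on the other strand, in capitals. LOXL1-AS1 is at chr15:73928199-73928498 on the minus strand, SH3RF3-AS1 at chr2:109130070-109130369 on the minus strand, and CEBPA-AS1 at chr19:33302571-33302870 on the plus strand.
LOXL1-AS1: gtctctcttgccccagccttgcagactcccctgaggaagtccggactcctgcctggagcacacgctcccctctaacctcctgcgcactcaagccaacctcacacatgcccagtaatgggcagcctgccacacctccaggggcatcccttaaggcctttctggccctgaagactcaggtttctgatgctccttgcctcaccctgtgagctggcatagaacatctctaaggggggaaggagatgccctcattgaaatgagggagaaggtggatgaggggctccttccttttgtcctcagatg
SH3RF3-AS1: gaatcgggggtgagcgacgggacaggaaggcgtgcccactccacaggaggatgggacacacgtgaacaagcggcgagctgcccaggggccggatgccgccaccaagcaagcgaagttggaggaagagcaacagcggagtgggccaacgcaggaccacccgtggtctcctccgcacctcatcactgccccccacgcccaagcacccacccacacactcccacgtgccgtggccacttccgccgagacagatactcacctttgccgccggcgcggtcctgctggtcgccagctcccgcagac
CEBPA-AS1: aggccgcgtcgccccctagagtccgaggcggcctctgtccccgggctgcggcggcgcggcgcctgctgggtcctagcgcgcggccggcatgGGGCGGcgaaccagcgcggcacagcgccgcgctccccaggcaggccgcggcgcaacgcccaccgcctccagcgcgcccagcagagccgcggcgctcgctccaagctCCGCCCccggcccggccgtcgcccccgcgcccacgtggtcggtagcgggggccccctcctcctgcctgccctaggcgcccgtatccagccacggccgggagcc
The LOXL1-AS1 window had a GC content of 57.7% with 3 CG dinucleotides and no GC box, that of SH3RF3-AS1 67.3% with 25 CG dinucleotides and no GC box, and that of CEBPA-AS1 81.0% with 47 CG dinucleotides and 2 GC boxes. The CEBPA-AS1 window shared 214 bases with a window of its partner CEBPA, whereas those of LOXL1-AS1 and SH3RF3-AS1 shared none with their partners. CIRBP-AS1 and PINK1-AS, described below, had no entry.

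RefSeq windows were found for 282 antisense genes. A GC box on either strand was in 56.7% of these, in 69.5% of the 279 partner windows and in 44.9% of all 34943 windows. The TATA box letters TATAAA were in 6.38% of antisense, 6.45% of partner and 11.6% of all windows, and the CCAAT letters in 33.0%, 38.0% and 34.7%, both strands counted. The median GC content was 63.8% for antisense genes, 66.7% for partners and 58.7% for all. Where both genes of a pair had a window, a window of the antisense gene overlapped one of its partner in 90 of 247 pairs (36.4%), and the same bases then count in both shares.

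At an FDR below 0.005 in edgeR, 38 of 367 antisense genes were called (10.4%), 11 up-regulated and 27 down-regulated in Helz-null cells. Over all 13887 tested genes, most of which have more counts, 25.0% were called, 11.7% up and 13.3% down, and the difference between the shares was not tested. With scaling by library size only, which moves log2 fold changes up by 0.0355, the split was 19 up and 25 down. The partners had 50 called up and 46 down (28.7%), and 63 up and 38 down with library size only. The WT and Helz-null values did not overlap for 217 antisense genes (59.1%), against a background of 68.0%.

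The called antisense genes moved by small amounts. Their median absolute log2 fold change was 0.38, and only SLC7A11-AS1 and PCOLCE-AS1 of the 38 passed 2-fold. Over all 367 the median log2 fold change was -0.02, and 0.02 with library size only, beside 0.00 for the partners and for all genes. DESeq2 called 24 at the same FDR, 5 up and 19 down, and the 14 calls lost were those of PCOLCE-AS1, RBM26-AS1, MZF1-AS1, ZSWIM8-AS1, MDC1-AS1 and SPAG5-AS1 among those up and of SLC7A11-AS1, ZNF32-AS1, ST20-AS1, THUMPD3-AS1, EMC3-AS1, NCBP2-AS2, NNT-AS1 and PSMA3-AS1 among those down. Without Helz-null replicate 2 the edgeR count was 25.

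The share called rose with the count level, in antisense genes as in all genes. Among genes with 200 or more and under 1000 counts 7 of 203 antisense genes were called (3.45%), against 10.3% of all genes. Below 3000 counts, in the next range, the numbers were 11 of 90 (12.2%) against 18.2%, and from 3000 to under 10000 counts 12 of 57 (21.1%) against 24.4%. At 10000 or more counts 8 of 17 antisense genes were called (47.1%), all of them down, against 34.0% of all genes. The low count of many antisense genes limits what could be detected, and a gene not called is not shown to be the same in both cell types.

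**Figure D1:**
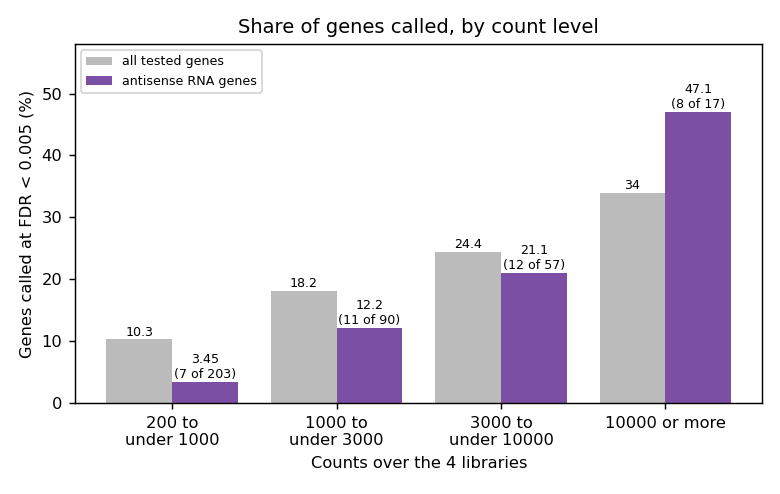
Bars give the percent of genes called at FDR below 0.005 by edgeR, for all tested genes (grey) and antisense RNA genes (purple), in 4 ranges of counts summed over the libraries, with the number of antisense genes called above each bar. The antisense share is below the share of all genes in the 3 lower ranges and is 47.1% against 34.0% at 10000 or more counts.

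**Figure D2:**
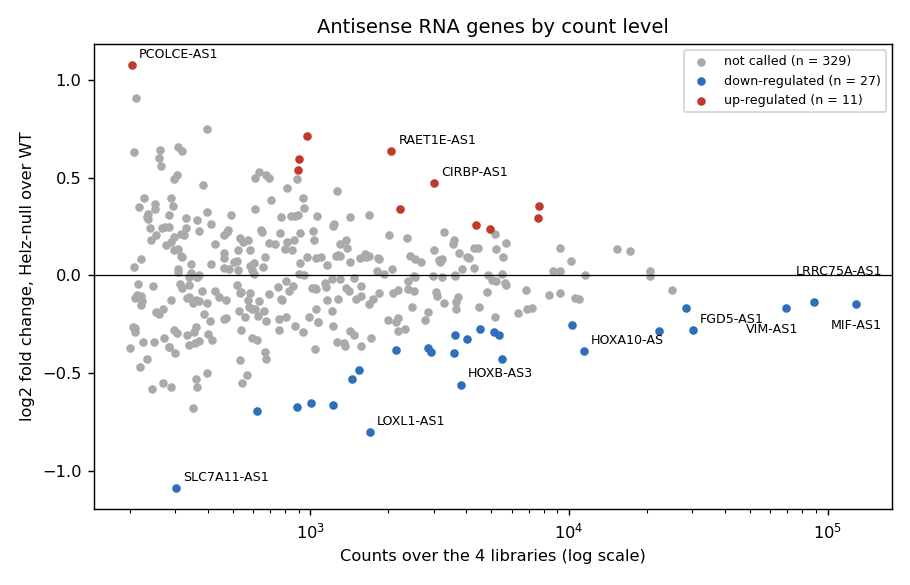
Each point is 1 of the 367 antisense RNA genes, with counts over the 4 libraries on a log axis and the log2 fold change of Helz-null over WT cells, red for 11 up-regulated, blue for 27 down-regulated and grey for genes not called. The called genes with the most counts lie just below 0, and the spread of grey points widens at low counts.

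Of the 10 most abundant antisense genes, 6 were down-regulated, none was up-regulated and 4 were not called, whereas with library size only 5 were down-regulated and PINK1-AS was up-regulated. Over all genes with 10000 or more counts 34.0% were called, and over all tested genes 13.3% were down. MIF-AS1 (chr22:24236613-24241117, minus strand), partner of the gene for macrophage migration inhibitory factor, had 600 and 643 CPM in WT and 558 and 564 CPM in Helz-null cells. That is a log2 fold change of -0.15 (SE 0.029, edgeR adjusted p = 0.00011). MIF changed by -0.15 as well (SE 0.029, adjusted p = 0.000126). Both were called in every fit without 1 library, at -0.10 without WT replicate 2 and at -0.20 without WT replicate 1. In every library the counts of MIF-AS1 were 1.005 to 1.006 times those of MIF, and no other pair had counts within 5% of each other in all libraries. GENCODE places 46.5% of the exonic bases of MIF-AS1 in exons of MIF on the other strand, so their reads cannot be told apart here.

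LRRC75A-AS1, which GENCODE lists as SNHG29, a host gene of small nucleolar RNAs, had 415 and 436 CPM in WT and 382 and 391.7 in Helz-null cells (log2 fold change -0.14, SE 0.029, edgeR adjusted p = 0.000271). It was not called with library size only or without Helz-null replicate 1, and its log2 fold change lay between -0.17 and -0.10 when 1 library was left out. Its partner LRRC75A was at 7.17 to 8.02 CPM, and 5.59% of the antisense exonic bases lie in its exons. VIM-AS1 (chr10:17256238-17272017, minus strand) had 335 and 333 CPM in WT and 299 and 297 in Helz-null cells, a log2 fold change of -0.17 (SE 0.028, adjusted p = 1.22e-05). VIM, the intermediate filament protein vimentin, went from 1052 and 1051 CPM to 958 and 944 CPM, -0.15 on the same scale (adjusted p = 1.99e-05), and was not called without Helz-null replicate 2. The ratio of both genes was alike in all libraries, between 0.335 and 0.341 in FPKM.

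FGD5-AS1 (chr3:14961854-14989931, minus strand), far above its partner, had 150 and 152 CPM in WT and 122 and 126 in Helz-null cells (log2 fold change -0.28, SE 0.033, edgeR adjusted p = 9.6e-09). FGD5, an exchange factor for CDC42, was at 0.927 to 1.36 CPM and was not called. VPS9D1-AS1 (chr16:89778264-89784573, plus strand) fell from 108 and 116 CPM to 88.6 and 94.4 CPM (-0.29, SE 0.039, adjusted p = 1.61e-07), with VPS9D1 at -0.14 and not called (adjusted p = 0.0942). VPS9D1 was called without WT replicate 1 (-0.24, edgeR adjusted p = 0.00373) and without Helz-null replicate 2 (-0.28, adjusted p = 0.00267), and was at -0.04 at the weakest without 1 library. WAC-AS1 completed the 6 and is described with its partner below. Those not called included SLC25A5-AS1 at -0.07 (-0.12 to -0.03 without 1 library), PCNA-AS1 at 0.00 and PINK1-AS at 0.125, and PCNA-AS1 was at 0.03 with library size only. PINK1-AS was called up with library size only (0.16, edgeR adjusted p = 0.00109) and without WT replicate 2 (0.15, adjusted p = 0.00262).

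Among less abundant genes, SLC7A11-AS1 (chr4:138978618-139099331, plus strand) had the lowest log2 fold change of the called antisense genes. It lies tail to tail with SLC7A11, the cystine and glutamate exchanger of the plasma membrane. Its level was 1.65 and 2.25 CPM in WT and 0.923 and 0.885 CPM in Helz-null cells, -1.09 on the log2 scale (SE 0.24, edgeR adjusted p = 0.000318), from 106, 94, 39 and 63 counts. SLC7A11 went from 59.0 and 62.7 CPM to 35.6 and 35.4 CPM (-0.78, SE 0.048, adjusted p = 6.7e-16). Both genes were lower in both Helz-null libraries, and their ratio did not pass the test (-0.29, limma adjusted p = 0.419). The call of SLC7A11-AS1 was lost without WT replicate 2 or Helz-null replicate 2, at -1.32 to -0.88 over the fits without 1 library.

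LOXL1-AS1 (chr15:74200412-74220589, minus strand) starts within LOXL1, a lysyl oxidase that cross-links elastin. It had 9.36 and 10.8 CPM in WT and 5.66 and 5.79 CPM in Helz-null cells, a log2 fold change of -0.80 (SE 0.11, edgeR adjusted p = 1.3e-07). LOXL1 had 8.25, 10.2, 9.89 and 10.4 CPM in the same order (0.16, adjusted p = 0.226). Only the antisense gene was lower in both Helz-null libraries, while the LOXL1 values overlapped. ZNF32-AS1 (chr10:44139320-44140495, plus strand), inside the zinc finger gene ZNF32, had 3.49 and 3.52 CPM in WT and 1.92 and 2.36 CPM in Helz-null cells (-0.69, adjusted p = 0.00167), and ZNF32 changed by -0.51 (adjusted p = 1.08e-07). ZNF32-AS1 was not called without WT replicate 1 or Helz-null replicate 1, at -0.87 to -0.57.

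RBM5-AS1, inside the gene of the splicing factor RBM5, went from 5.05 and 4.91 CPM to 3.10 and 3.15 CPM (-0.67, edgeR adjusted p = 0.000298), with 72.7% of its exonic bases in RBM5 exons. MAFG-AS1, without a position in GENCODE and named after a small Maf transcription factor, went from 6.53 and 7.37 to 4.33 and 4.397 CPM (-0.66, adjusted p = 5.93e-05). RAMP2-AS1, which starts head to head with the receptor accessory protein gene RAMP2, went from 5.63 and 5.58 to 3.34 and 3.74 CPM (-0.65, adjusted p = 0.000236). In these 3 the values of the cell types did not overlap. Their partners were at -0.18 for RBM5 (adjusted p = 0.000905, not called without WT replicate 1 or Helz-null replicate 1, nor with library size only or DESeq2), -0.09 for MAFG (-0.12 to -0.05 without 1 library, the last without WT replicate 1) and -0.62 for RAMP2 (adjusted p = 0.00653), the last with 1.92 to 3.83 CPM. RAMP2 was called with the replicate block (-0.66, edgeR adjusted p = 0.00108), with all genes of at least 1 count (adjusted p = 0.00097) and without WT replicate 1 (-0.82, adjusted p = 0.000825), and was at -0.43 at the weakest without 1 library.

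The remaining genes of the 10 with the lowest values were HOXB-AS3, IQCH-AS1, ST20-AS1 and LIMD1-AS1. IQCH-AS1 (chr15:67582974-67814182, minus strand) had 7.75 and 7.97 CPM in WT and 5.66 and 5.28 CPM in Helz-null cells (-0.53, edgeR adjusted p = 0.000286). ST20-AS1 had 8.27 and 8.11 CPM in WT and 5.80 and 5.93 CPM in Helz-null cells (-0.48, adjusted p = 0.000537). Neither was called without Helz-null replicate 2, at -0.57 to -0.47 for IQCH-AS1 and -0.50 to -0.47 for ST20-AS1. LIMD1-AS1 (chr3:45717861-45730692, minus strand) had 30.9 and 26.9 CPM in WT and 23.2 and 20.3 CPM in Helz-null cells (-0.43, adjusted p = 4.36e-06). LIMD1, a LIM domain protein of P-bodies, changed by the same -0.43 (adjusted p = 1.66e-09), and 69.6% of the antisense exonic bases lie in LIMD1 exons.

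Of the up-regulated antisense genes, PCOLCE-AS1 (chr7:100187025-100201829, minus strand) had the highest log2 fold change and among the fewest counts. It reached the 200 counts of the selection only through the Helz-null libraries, so that its direction and its place among the called genes were in part set by how members were chosen. It had 32 and 30 counts in WT and 50 and 92 in Helz-null libraries, or 0.499, 0.718, 1.18 and 1.29 CPM (1.08, SE 0.28, edgeR adjusted p = 0.00198). PCOLCE, a protein that enhances procollagen processing, was at 0.32 (edgeR adjusted p = 0.0411), at 0.21 without WT replicate 2, at 0.20 without Helz-null replicate 2 and at 0.48 at the highest without 1 library. Every fit without 1 library but that without WT replicate 2 lost the call of PCOLCE-AS1, at 0.80 to 1.32, as did the count filter filterByExpr of edgeR (1.07, adjusted p = 0.00574).

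SH3RF3-AS1 (chr2:109743783-109745386, minus strand), divergent from the ubiquitin ligase gene SH3RF3, had 3.26 and 3.42 CPM in WT and 5.66 and 5.30 CPM in Helz-null cells (0.71, SE 0.14, edgeR adjusted p = 9.96e-05). SH3RF3 itself was between 13.9 and 16.03 CPM (0.06, adjusted p = 0.616). RAET1E-AS1 (chr6:150184630-150240643, plus strand) had 6.50 and 8.26 CPM in WT and 10.6 and 11.9 CPM in Helz-null cells (0.64, SE 0.10, adjusted p = 6.17e-06). Its partner RAET1E, a ligand of the NKG2D receptor, was not tested, and 83.0% of the antisense exonic bases lie in exons of LRP11. LRP11 was at 67.0 and 72.4 CPM in WT and 77.0 and 77.4 in Helz-null cells (0.15, adjusted p = 0.00314), and was not called with DESeq2 or without WT replicate 1, Helz-null replicate 1 or Helz-null replicate 2, at 0.09 to 0.20.

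RBM26-AS1 (0.59, edgeR adjusted p = 0.00165), MZF1-AS1 (0.54, adjusted p = 0.00306), ZSWIM8-AS1 (0.34, adjusted p = 0.00311) and MDC1-AS1 (0.26, adjusted p = 0.00247) were up-regulated with adjusted p-values near the threshold. RBM26-AS1 had 3.24 and 3.21 CPM in WT and 4.26 and 5.37 CPM in Helz-null cells and was not called without WT replicate 1 or Helz-null replicate 2, at 0.40 to 0.73. MZF1-AS1, at 0.47 to 0.63, and ZSWIM8-AS1, at 0.29 to 0.40, were called in only the fit without WT replicate 2 among those without 1 library, and MDC1-AS1, at 0.21 to 0.32, in only that without WT replicate 1. The values of RNF219-AS1, which GENCODE lists as OBI1-AS1, were 31.2 and 29.9 CPM in WT and 39.3 and 38.9 in Helz-null cells (0.35, adjusted p = 1.35e-06). MMP24-AS1, listed by GENCODE as the protein-coding gene MMP24OS, had 31.3 and 30.9 against 38.4 and 38.0 CPM (0.29, adjusted p = 2.34e-05). SPAG5-AS1 was at 0.24 (adjusted p = 0.00336, called in only the fit without WT replicate 1 among those without 1 library, at 0.21 to 0.27), with 32.9% of its exonic bases in KIAA0100, which was at 0.20 (adjusted p = 5.23e-07).

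**Figure D3:**
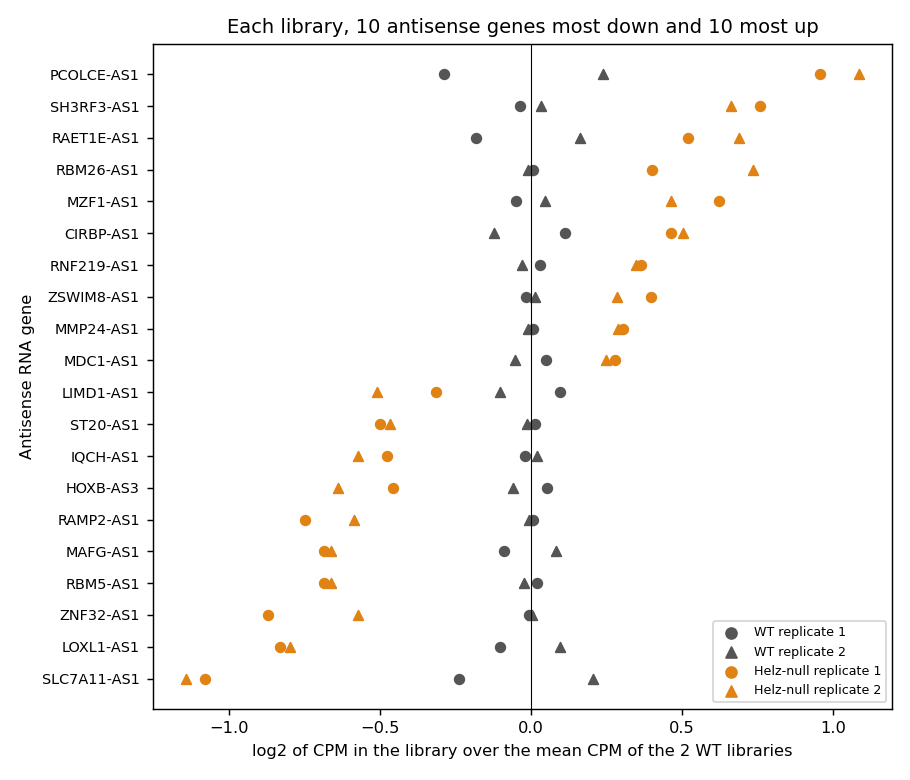
Each point is the CPM of 1 library over the mean of the 2 WT libraries, on a log2 axis, for the 10 called antisense genes with the lowest and the 10 with the highest log2 fold change; grey marks WT and orange Helz-null, circles replicate 1 and triangles replicate 2. In all 20 genes the points of the cell types do not overlap, and the WT points of SLC7A11-AS1, PCOLCE-AS1 and RAET1E-AS1 lie farther apart than those of the other genes.

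HOX clusters hold several antisense genes beside the homeobox transcription factors that pattern the body axis. Of 9 HOX antisense genes, 3 were down-regulated and none was up-regulated, beside 25.0% of all genes called and 13.3% down. HOXB-AS3 (chr17:46626992-46683776, plus strand) had 21.6 and 19.98 CPM in WT and 15.2 and 13.4 CPM in Helz-null cells (-0.56, SE 0.075, edgeR adjusted p = 1.53e-07). HOXA10-AS (chr7:27208238-27211534, plus strand) had 58.5 and 60.6 CPM in WT and 48.1 and 43.3 CPM in Helz-null cells (-0.39, SE 0.048, adjusted p = 3.3e-08). HOXA-AS3 had 27.1 and 27.3 CPM in WT and 21.8 and 22.2 CPM in Helz-null cells (-0.30, adjusted p = 0.000132).

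These antisense genes share bases with HOX genes of the other strand. HOXB-AS3 has 30.1% of its exonic bases in HOXB6, which was at -0.52 (edgeR adjusted p = 7.24e-14). HOXA10-AS has 36.8% in HOXA10, at -0.36 (adjusted p = 8.55e-11), and HOXA-AS3 has 39.1% in HOXA7, at -0.08 (adjusted p = 0.414). The other 6 were HOXA-AS2 at -0.68 (adjusted p = 0.0116), HOXB-AS1 at -0.30 (-0.45 to -0.10 without 1 library, the last without WT replicate 1), HOXD-AS2 at -0.22 (-0.34 to -0.15, the last without Helz-null replicate 1), HOXA11-AS at -0.21 (adjusted p = 0.00726, called without WT replicate 2), HOXC-AS1 at -0.07 and HOXC13-AS at 0.23. HOXC-AS1 had 1.81 and 0.981 CPM in WT and 0.876 and 1.76 in Helz-null cells, so that its direction turned with the library left out.

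In 17 of the 341 tested pairs both genes were called, in 18 only the antisense gene, in 83 only the partner and in 223 neither. Of the 17, 10 had both genes down, 4 had both up and 3 had opposite directions. Both genes were called in 4.99% of these pairs and in 7.48% of all 3474 pairs of tested genes on opposite strands, and the direction was the same in 82.4% of the first and 81.5% of the latter. A further 3 called antisense genes, HOXB-AS3, HOXA-AS3 and RAET1E-AS1, had no tested partner. Among the 10, FBXO22-AS1, with 17.9 and 19.8 CPM in WT and 15.2 and 13.5 CPM in Helz-null cells, was at -0.40 (edgeR adjusted p = 7.73e-05, not called without Helz-null replicate 2, at -0.48 to -0.31), and FBXO22, a substrate receptor of a ubiquitin ligase, was at -0.40 as well. THUMPD3-AS1, around the tRNA methyltransferase gene THUMPD3, had 22.4 and 18.1 CPM in WT and 17.5 and 15.3 CPM in Helz-null cells (-0.33, adjusted p = 0.00134, not called without WT replicate 1 or Helz-null replicate 2, at -0.46 to -0.16), and THUMPD3 was at -0.47. The 4 pairs with both genes up were those of RBM26-AS1, RNF219-AS1, ZSWIM8-AS1 and MDC1-AS1. ZSWIM8, a ubiquitin ligase subunit that acts in microRNA turnover, was at 0.37 beside 0.34 for its antisense gene, and MDC1, a mediator of the DNA damage response, at 0.27 beside 0.26. GENCODE places 64.6% of the exonic bases of ZSWIM8-AS1 and 95.0% of those of MDC1-AS1 in exons of the partner.

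Pairs were also described by the share of antisense exonic bases that lie in exons of the partner, with no test between the groups. With 20% or more of the exonic bases in the partner's exons, 10 of 83 tested pairs had both genes called, 9 in the same direction. With fewer shared bases there were 6 such pairs of 172, 4 in the same direction, and with none there were 0 of 78. Over all 3474 opposite-strand pairs both genes were called in 7.48%. The groups also differed in the antisense level, with medians of 3.39, 2.25 and 1.56 FPKM in WT cells in the same order, and its part in these counts was not tested. Pairs in which each of both genes had 1000 or more counts were also looked at. There, Pearson's r between both log2 fold changes was 0.69 over 37 pairs, 0.32 over 78 and 0.46 over 25 in the same order. The median absolute change of the ratio in these pairs was 0.05, 0.11 and 0.20 on the log2 scale, lowest where most bases are shared. These pairs share the 4 libraries and, in the first groups, genomic bases, and whether shared reads enter both genes was not tested.

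Whether an antisense gene changed apart from its partner was tested on the ratio of both in each library. The ratio differed between the cell types in 9 of 341 pairs (2.64%) at an FDR below 0.005 in limma, against 9.64% of the 3474 pairs of tested genes on opposite strands. It was higher in Helz-null cells in 2 and lower in 7. With voom weights the count was 8, without SH3RF3-AS1 and PINK1-AS and with CTBP1-AS2 (-0.38, limma adjusted p = 0.00176), named after its values were seen. In the fits without WT replicate 1 and without WT replicate 2 the count was 4 each, and in those without Helz-null replicate 1 and without Helz-null replicate 2 it was 0.

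In 3 pairs both genes were called and moved apart. CIRBP-AS1 (chr19:1267470-1270259, minus strand) lies inside CIRBP, the cold-inducible RNA-binding protein. It had 12.2 and 10.3 CPM in WT and 15.5 and 15.9 CPM in Helz-null cells (log2 fold change 0.47, SE 0.083, edgeR adjusted p = 1.72e-05). CIRBP had 211 and 204 CPM in WT and 174 and 176 CPM in Helz-null cells (-0.25, SE 0.031, adjusted p = 3.15e-08). The FPKM ratio of antisense to partner went from 0.147 and 0.129 to 0.228 and 0.232 (0.74 on the log2 scale, SE 0.091, limma adjusted p = 6.19e-05), and GENCODE gives 4 shared exonic bases.

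WAC-AS1 (chr10:28811581-28821995, minus strand) starts head to head with WAC, an adaptor in histone H2B ubiquitination. It had 137 and 138 CPM in WT and 121 and 123 CPM in Helz-null cells (-0.17, SE 0.033, edgeR adjusted p = 9.74e-05). WAC had 186 and 187 CPM in WT and 199.9 and 204 CPM in Helz-null cells (0.11, SE 0.031, adjusted p = 0.00278) and was not called without Helz-null replicate 1, without Helz-null replicate 2 or with DESeq2. The ratio went from 0.812 and 0.816 to 0.672 and 0.668 (-0.28, SE 0.036, limma adjusted p = 8.35e-05). The replicates of each cell type differed by far less in this ratio than the cell types did.

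ATP6V0E2-AS1 (chr7:149564786-149577699, minus strand) overlaps the start of ATP6V0E2, a subunit of the vacuolar proton pump. It had 15.9 and 14.4 CPM in WT and 11.9 and 11.4 CPM in Helz-null cells (-0.39, SE 0.081, edgeR adjusted p = 0.00018), and was not called without WT replicate 1 (-0.31 at the weakest). ATP6V0E2 had 133 and 140 CPM in WT and 155 and 157 CPM in Helz-null cells (0.19, SE 0.033, adjusted p = 1.3e-05). The ratio went from 0.109 and 0.0940 to 0.0700 and 0.0666 (-0.57, SE 0.094, limma adjusted p = 0.000646). Genes within 2 Mb of the pair had a median log2 fold change of 0.25.

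In the other 6 pairs 1 gene or neither was called. The LOXL1-AS1 ratio fell from 0.939 and 0.875 to 0.474 and 0.463 (-0.95, SE 0.11, limma adjusted p = 2.62e-05), and that of IQCH-AS1 from 0.952 and 1.03 to 0.647 and 0.624 (-0.64, adjusted p = 0.00105). For MAFG-AS1 it fell from 0.317 and 0.374 to 0.232 and 0.228 (-0.58, adjusted p = 0.0045). The SH3RF3-AS1 ratio rose from 0.450 and 0.477 to 0.819 and 0.664 (0.67, adjusted p = 0.00411), and did not pass with voom weights (0.64, adjusted p = 0.00628). In these 4 the antisense gene was called and the partner was not.

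CEBPA-AS1, which GENCODE lists as the divergent transcript CEBPA-DT, had a ratio of 0.439 and 0.381 in WT and 0.268 and 0.291 in Helz-null cells (-0.55, limma adjusted p = 0.00489). Neither CEBPA-AS1 (-0.35, edgeR adjusted p = 0.0201) nor CEBPA, a transcription factor of myeloid and liver cells (0.20, adjusted p = 0.026), was called. PINK1-AS (chr1:20969150-20978686, minus strand) had a ratio of 0.715 and 0.698 in WT and 0.609 and 0.613 in Helz-null cells (-0.21, limma adjusted p = 0.00411), which did not pass with voom weights (adjusted p = 0.00517). There the partner PINK1, a kinase of mitochondrial quality control, was up-regulated at 0.34 (edgeR adjusted p = 1.87e-08), and PINK1-AS was at 0.125 (adjusted p = 0.0102).

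**Figure D4:**
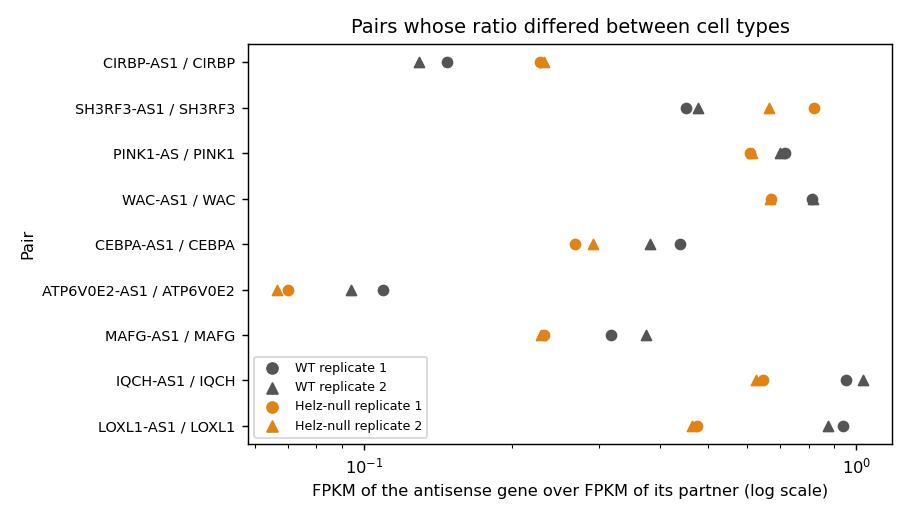
Each point is the FPKM of the antisense gene over that of its partner in 1 library, on a log axis, for the 9 pairs whose ratio differed between the cell types at FDR below 0.005 in limma; grey marks WT and orange Helz-null, circles replicate 1 and triangles replicate 2. WT and Helz-null points do not overlap in any of the 9 pairs, and the orange points lie to the right only for CIRBP-AS1 and SH3RF3-AS1.

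Some called antisense genes lie where neighbouring genes moved too. Of the tested genes with 5 or more neighbours, 8.76% had neighbours within 2 Mb whose median log2 fold change was 0.15 or more away from 0, members and partners left out. In such places lay 40 of 349 antisense genes, of which 13 were called, 10 down and 3 up, and 9 of the 10 had lowered neighbours. That is 32.5%, with 25.0% down, beside 58.4% of all 1151 tested genes in such places, with 45.3% down and 13.1% up. Outside lay 309, with 15 called down and 8 up, and there 22.3% of all tested genes were called. Chromosome 3 held 29 antisense genes with 6 down and 0 up, and chromosome 15 held 13 with 5 down and 0 up. Of all tested genes, 31.3% were down and 5.3% up on chromosome 3, and 37.6% down and 5.75% up on chromosome 15, beside 20.7% and 38.5% of the antisense genes down.

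The neighbour values stood beside several genes described above. On chromosome 15 the neighbour median was -0.34 for LOXL1-AS1 and PRC1-AS1, -0.29 for IQCH-AS1 and -0.37 for ST20-AS1. On chromosome 3 it was -0.31 for LIMD1-AS1, -0.24 for RBM5-AS1 and -0.20 for FGD5-AS1 and THUMPD3-AS1. RNF219-AS1 at 0.36 and RBM26-AS1 at 0.40 had raised neighbours, whereas the up-regulated MZF1-AS1 had a neighbour median of -0.21. PRC1-AS1, inside the gene of a microtubule bundler of cytokinesis, was at -0.29 (not called without WT replicate 1, at -0.35 to -0.22 over the fits without 1 library) and PRC1 at -0.32, and both were above 0 once the neighbour median was subtracted. SLC7A11-AS1, ZNF32-AS1, WAC-AS1, CIRBP-AS1, SH3RF3-AS1, HOXB-AS3 and HOXA10-AS had neighbour medians between -0.09 and 0.06. The part of chromosome position in the calls was not tested further.

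Among other non-coding genes, 15 of 94 LINC genes, which lie between protein-coding genes, were called (16.0%), 11 up and 4 down, with a median of 704.5 counts, beside 25.0% of all genes and 10.3% of all genes with 200 or more and under 1000 counts. No -IT or -OT transcript was called, with 2 tested of each. Genes of RNA turnover and of double-stranded RNA were looked at as 2 lists, in which 7 of 19 and 4 of 13 were called. Of 19 genes of the nuclear exosome and its adaptors, DIS3, a catalytic subunit, was up-regulated (0.48, edgeR adjusted p = 4.42e-15), and EXOSC2, EXOSC6, EXOSC7, EXOSC8, EXOSC9 and MPHOSPH6 were down-regulated, with values from -0.44 to -0.16. Of 13 genes for enzymes and binders of double-stranded RNA, the helicase DHX9 was up (0.11, adjusted p = 0.00244), and DICER1 (-0.18), EIF2AK2 (-0.38) and PRKRA (-0.17) were down. Their shares called, 36.8% and 30.8%, stand beside the 25.0% of all genes and the 34.0% of all genes with 10000 or more counts, with list medians of 11139 and 26840 counts. With DESeq2 and with library size only the calls of EXOSC8 and PRKRA were lost. In the fits without 1 library that of EXOSC8 was lost in all 4, and those of MPHOSPH6, DICER1, DHX9 and PRKRA in 1 or more. DIS3 had a neighbour median of 0.38 and EXOSC7 of -0.29.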

How the data were processed

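Total RNA of 2 WT and 2 Helz-null cultures was sequenced after library preparation with a TruSeq kit. The authors filtered ribosomal reads (Bowtie2), aligned the remaining read pairs to hg19 (TopHat2) and obtained gene counts with QuasR; versions, annotation, strand setting and the counting of mates are not given in the sources used here. The deposited counts are raw. The deposited comparison holds log2 fold changes, log2 CPM and p-values of the authors for 10978 genes, used here only as a gene list; no -AS symbol is in it, although 183 exceed an FPKM of 2 in every library.

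Counts of the 13887 genes with 200 or more counts were fitted with edgeR 4.0.16 in R 4.3.3 (TMM, quasi-likelihood F test, Benjamini-Hochberg, call at FDR below 0.005). Ratios used limma 3.58.1 with trend on log2 CPM, prior count 2, over 3474 pairs whose genes lie on opposite strands and overlap or lie within 2000 bases, plus the named pairs. In simulated data the gene fit called 179 of 200 changed and 1 unchanged gene, and the pair fit 73 of 93 changed pairs and 0 unchanged. Changed genes were drawn from all tested genes, whose median was 6931 counts, beside 850 for antisense genes. Every planted change was larger than 0.38 on the log2 scale, the median absolute change of the called antisense genes. Recovery among antisense genes alone was not tested. Positions are from GENCODE 44 on GRCh37, the build of hg19. The deposited gene widths were a median 66.0% of its exonic lengths, so the annotations differ. Replicates of a cell type differed by more than sampling noise (chi-square per degree of freedom 3.76 and 2.83), and floors cover counting error only.

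Named genes were the 10 most up- and 10 most down-regulated called antisense genes, the 10 of highest mean CPM, all HOX antisense genes, pairs with both genes called, the genes at the count limit and partners of these; 1 of them is not reported here. CEBPA-AS1 was added with the pairs that passed the ratio test, and EXOSC2 and other turnover genes, LRP11, KIAA0100, SPAG5-AS1, HOXB6 and HOXA7 were named after their values were seen. Members and lists were chosen with earlier results of these data known. Alternatives were another scaling (DESeq2 size factors or library size only), filter, threshold, DESeq2 1.42.0, voom weights, halved counts, the replicate number as a block, neighbour subtraction and leaving out each library.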

Additional observations from a re-analysis of the deposited data

How the results depend on the processing

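Of the antisense genes, 38 were called, and 38 to 45 under other scaling, other count filters, halved counts or the replicate block (45; the numbers share only a number, with a correlation of same-numbered deviations of 0.0357). The count was 24 with DESeq2, 85 at an FDR below 0.05, 4 when a fold of at least 1.2 was tested, and 25 to 39 without 1 library. For partners the 96 calls became 8 with the fold of 1.2 and 76 to 101 without 1 library. The median log2 fold change of antisense genes was 0.0184 with library size only and -0.0396 to -0.009 without 1 library, and that of partners 0.0369 and -0.0032 to -0.0001. The ratio test called 9 pairs, 8 with voom weights, of which 7 are among the 9, 12 with the replicate block, 29 at an FDR below 0.05 and 0 to 4 without 1 library. The list of the authors' comparison gave no value for antisense genes. HELZ stayed between -1.475 and -1.408.

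After subtraction of the neighbour median, the log2 fold change was -0.009 for RNF219-AS1, -0.081 for RNF219, -0.233 for RBM26, -0.056 for ATP6V0E2, 0.055 for RBM5, 0.054 for PRC1-AS1 and 0.028 for PRC1. Of 48 called genes with such neighbours, 12 kept their sign and moved by over 1.5 times: RBM26-AS1 to 0.198, LOXL1-AS1 to -0.462, RBM5-AS1 to -0.433, IQCH-AS1 to -0.235, ST20-AS1 to -0.108, LIMD1-AS1 to -0.113, LIMD1 to -0.114, FGD5-AS1 to -0.084, ATP6V0E2-AS1 to -0.64, FBXO22 to -0.062, THUMPD3-AS1 to -0.127 and THUMPD3 to -0.271. LOXL1, not called, moved to 0.496. Signs of genes not called also turned: PCNA-AS1 was 0.032 with library size only, MZF1 -0.014 with halved counts and LRRC75A -0.004 with the replicate block. Without 1 library the values were -0.063 to 0.143 for SH3RF3, -0.071 to 0.094 for MZF1, -0.003 to 0.299 for LOXL1, -0.083 to 0.077 for LRRC75A, -0.031 to 0.021 for PCNA-AS1, -0.025 to 0.035 for PCNA, -0.01 to 0.155 for HOXC13 and -0.726 to 0.5 for HOXC-AS1. The cause was not tested. Of 50 called genes among 77 named ones, 11 lost the call with DESeq2, 42 with the fold of 1.2 and 2 to 12 without 1 library. Of the 367 antisense genes 203 have fewer than 1000 counts, which limits what can be detected.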
